A study of Mus musculus with 18 samples.

Results

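The genes described here encode the translation initiation and elongation factors measured in mouse thymocytes, the T cell precursors of the thymus. They were chosen by name, as the array's non-control probes whose gene name begins with Eif1 to Eif6, Eef1 or Eef2, without the pair of sex-linked eIF2 gamma genes. The rule found 33 gene names of 38354 in all, clone and accession names included, on 37 of 41174 non-control probes. All 37 passed the filter on dim probes. The probe of Eef1b2 was saturated in the reference channel on 1 array and was kept apart, which left 36. Each value below is the log2 ratio of an older mouse's sample to the 1 month reference on the same array, so a positive value means a higher signal in the older mouse.

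The study set thymocyte RNA of C57BL/6 mice aged 6, 16 and 24 months, with 3 mice per age, against thymocyte RNA of 1 month C57BL/6 mice on 9 Agilent 2-colour arrays, and its title states an interest in gene expression changes of the thymus with age. The thymi were dispersed, strained and treated to lyse red cells, and no further sort of the thymocytes is described in the labels. The older mouse was in the Cy3 channel and the reference in the Cy5 channel on every array. Age and dye therefore cannot be told apart in a comparison with the reference, whereas comparisons among 6, 16 and 24 months do not carry that limit. The design text calls the reference a pool, but the sample labels number 9 mice of 1 month, and nothing in the files decides between them. Here it counts as a single control, so its tests leave out any spread between 1 month mice. The separate mice are the replicates.

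Translation of most mRNAs begins when eIF2, loaded with initiator tRNA, joins the small ribosomal subunit together with eIF1, eIF1A and the many-subunit scaffold eIF3. The cap of the mRNA is recognised by eIF4E, which works with the scaffold eIF4G and the helicase eIF4A and is held back by the 4E-binding proteins under mTOR control. Kinases that phosphorylate the alpha subunit of eIF2 lower initiation under stress, eIF2B recharges eIF2 with GTP, and the eEF1 and eEF2 factors drive elongation. Thymocytes that divide and rearrange their receptor genes draw on this machinery when they grow.

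Several probes carry former names. Eif3s2 to Eif3s8 are now Eif3i, Eif3h, Eif3g, Eif3f, Eif3e, Eif3d and Eif3c. Eif4el3 is Eif4e2, and the probe named Eif1ay carries the accession of Eif1ax. The names Eif2c1, Eif2c2 and Eif2c4 belong to Ago1, Ago2 and Ago4, which encode Argonaute proteins of microRNA silencing and not translation factors. They matched the rule by name and are described with the rest. Eef1e1 encodes a scaffold component of the aminoacyl-tRNA synthetase complex.

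RefSeq promoter windows of GRCm38.p6, each from 250 bases before to 50 bases after an annotated start, were at hand for 24 of the 33 genes. Those of Eif4g2, Eef1d, Eif4ebp1, Eif3h, Eif1a, Ago2, Eif3i, Eif3e and Eif4ebp3 were not matched. Many mRNAs of the translation machinery begin inside an unbroken run of C and T, the terminal oligopyrimidine tract, and CACGTG is the E-box that Myc and related factors can bind. The 6 members whose levels are described below and shown here were picked because they differ in these letters. Eif3f and Eif3g are eIF3 subunits, Eif2s2 is the beta subunit of eIF2 and Eef1e1 is the synthetase scaffold. Eef2k is the kinase of eEF2 (the first of its annotated starts is shown), and Eif4e is the cap-binding protein (the second of its annotated starts). Each stretch of 120 bases ends 20 bases into the transcript. Capitals mark CACGTG and any C and T run of at least 8 bases over the start.
Eif3f, chr7:108934315-108934434, plus strand: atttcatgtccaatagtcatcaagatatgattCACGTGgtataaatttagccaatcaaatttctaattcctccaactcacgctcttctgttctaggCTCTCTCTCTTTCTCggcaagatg
Eif3g, chr9:20898571-20898690, minus strand: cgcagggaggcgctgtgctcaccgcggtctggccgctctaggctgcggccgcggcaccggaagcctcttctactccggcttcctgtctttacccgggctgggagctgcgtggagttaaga
Eef2k, chr7:120842731-120842850, plus strand: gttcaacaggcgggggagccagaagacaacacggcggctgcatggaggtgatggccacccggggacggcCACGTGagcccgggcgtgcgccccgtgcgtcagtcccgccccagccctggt
Eif4e, chr3:138527168-138527287, plus strand: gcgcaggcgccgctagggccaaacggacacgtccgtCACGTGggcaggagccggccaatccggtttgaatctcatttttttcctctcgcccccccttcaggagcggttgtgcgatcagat
Eif2s2, chr2:154892887-154893006, minus strand: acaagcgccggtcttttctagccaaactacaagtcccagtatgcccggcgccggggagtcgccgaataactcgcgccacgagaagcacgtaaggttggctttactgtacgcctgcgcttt
Eef1e1, chr13:38659009-38659128, minus strand: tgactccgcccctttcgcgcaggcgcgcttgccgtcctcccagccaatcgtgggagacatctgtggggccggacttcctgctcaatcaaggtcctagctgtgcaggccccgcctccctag
The run of 15 bases in Eif3f spans positions -4 to 10 from the annotated start base, counted as 0. It was the only run of at least 8 bases over the annotated start, searched on the transcribed strand, among the 34 windows of the 24 genes. Such a run lay over the start in 3.86% of all 32851 windows. Runs elsewhere in a window were not counted. CACGTG, which reads alike on both strands, occurred in windows of 5 genes, namely Eef2k, Eif3f, Eif4a1, Eif4e and Eif5a2. That is 14.7% of the members' windows against 7.15% of all windows. At the other annotated starts of Eef2k and Eif4e the windows held no CACGTG. The windows of Eif3g, Eif2s2 and Eef1e1 held neither CACGTG nor such a run over the start. These matches are letters in a window, not measured binding.

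The libraries were those of thymocytes by their markers. Of 10 thymocyte markers, 9 were on the array and all 9 were well above background in Cy3 on every array, with a summed Cy3 signal between 856000 and 1710000. In Cy3, 79.6% to 94.2% of the features that are not controls stood well above background. Other cells varied more. The summed Cy3 signal of 6 erythroid probes ran from 16800 to 556000, and that of 5 granulocyte probes was 109000 in mouse 2 of 16 months against 1020 to 11300 in the other mice. B cell probes summed to 9350 to 31200 and epithelial probes to 4550 to 11300. In such bulk samples a change in the number of cells of a type cannot be told apart from a change of RNA per cell.

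Among the 3 older ages the translation factors did not separate by test. At a limma Benjamini-Hochberg adjusted p under 0.05, 0 of 36 probes passed at 16 against 6 months, 0 at 24 against 6 months and 0 at 24 against 16 months. The same held for all 37449 tested probes, of which 0% were called in each comparison. At an unadjusted limma p under 0.05, 3, 3 and 0 member probes passed, and among all tested probes 2388, 3412 and 1786. The median difference of the members was -0.01 at 16 against 6 months, -0.06 at 24 against 6 months and -0.03 at 24 against 16 months, beside medians over all tested probes of 0.01, -0.02 and -0.02. The median standard error of a member's difference was 0.12, so changes of that order could not be resolved with 3 mice per age. Larger ones did not pass either. The lowest limma adjusted p of any tested probe was 0.176, 0.199 and 0.862 in these 3 comparisons.

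The members with the smallest p in the comparison of 24 with 6 months were Ago4, Eif2s2 and Eef1e1. For Ago4 the log2 ratio was 0.09, 0.24 and -0.04 at 6 months, 0.24, 0.54 and 0.19 at 16 months, and 0.45, 0.42 and 0.47 at 24 months. All 3 mice of 24 months lay above all 3 of 6 months, and the difference was 0.35 ± 0.11 (SE, n = 3 and 3; limma adjusted p = 0.492). For the brighter probe of Eif2s2 the ratio was -0.12, -0.01 and 0.18 at 6 months, -0.56, -0.26 and -0.25 at 16 months, and -0.36, -0.38 and -0.19 at 24 months. Both older ages lay wholly below 6 months for this subunit, by -0.37 ± 0.12 at 16 months (limma adjusted p = 0.769) and by -0.33 ± 0.12 at 24 months (limma adjusted p = 0.512).

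Eef1e1 was low on every array. Its log2 ratio was -0.36, -0.34 and -0.14 at 6 months, -0.58, -0.52 and -0.42 at 16 months, and -0.63, -0.57 and -0.39 at 24 months. The mice of 16 and of 24 months lay wholly below those of 6 months, and the difference at 24 months was -0.25 (95% interval -0.47 to -0.03; limma adjusted p = 0.532). Eif3e, the eIF3 subunit once known as Int6, differed by -0.35 (95% interval -0.71 to 0.01) and its mice of 6 and 24 months overlapped. Eif5a2, the less common paralog of the hypusinated factor eIF5A, lay higher at 24 than at 6 months without overlap, with a difference of 0.13 (95% interval -0.02 to 0.29), but the difference was -0.16 with the median-centred values described below. Under that setting the difference at 24 against 6 months was 0.11 for Ago4, -0.67 for Eif2s2, -0.49 for Eef1e1 and -0.73 for Eif3e.

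In all, 2 members lay wholly higher and 3 wholly lower at 24 than at 6 months, against 5.83% and 10.1% of all probes measured on every array. That is 5.56% and 8.33% of the members, near the background. At 16 against 6 months 2 lay higher (background 7.21%) and 4 lower (background 6.69%), of which both Eif2s2 probes made up a pair. At 24 against 16 months 1 lay higher (4.27%) and 2 lower (6.31%). In the other role groups the smallest p was that of Eif4g2 among the cap-binding factors (-0.10 at 24 against 6 months), Eif4enif1 among the 4E-binding proteins (-0.18), the brighter probe of Eif2ak3 among the eIF2 alpha kinases (-0.21), Eif2b4 for eIF2B (-0.05) and Eef2k (0.18), with limma adjusted p from 0.627 to 0.839.

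**Figure D1:**
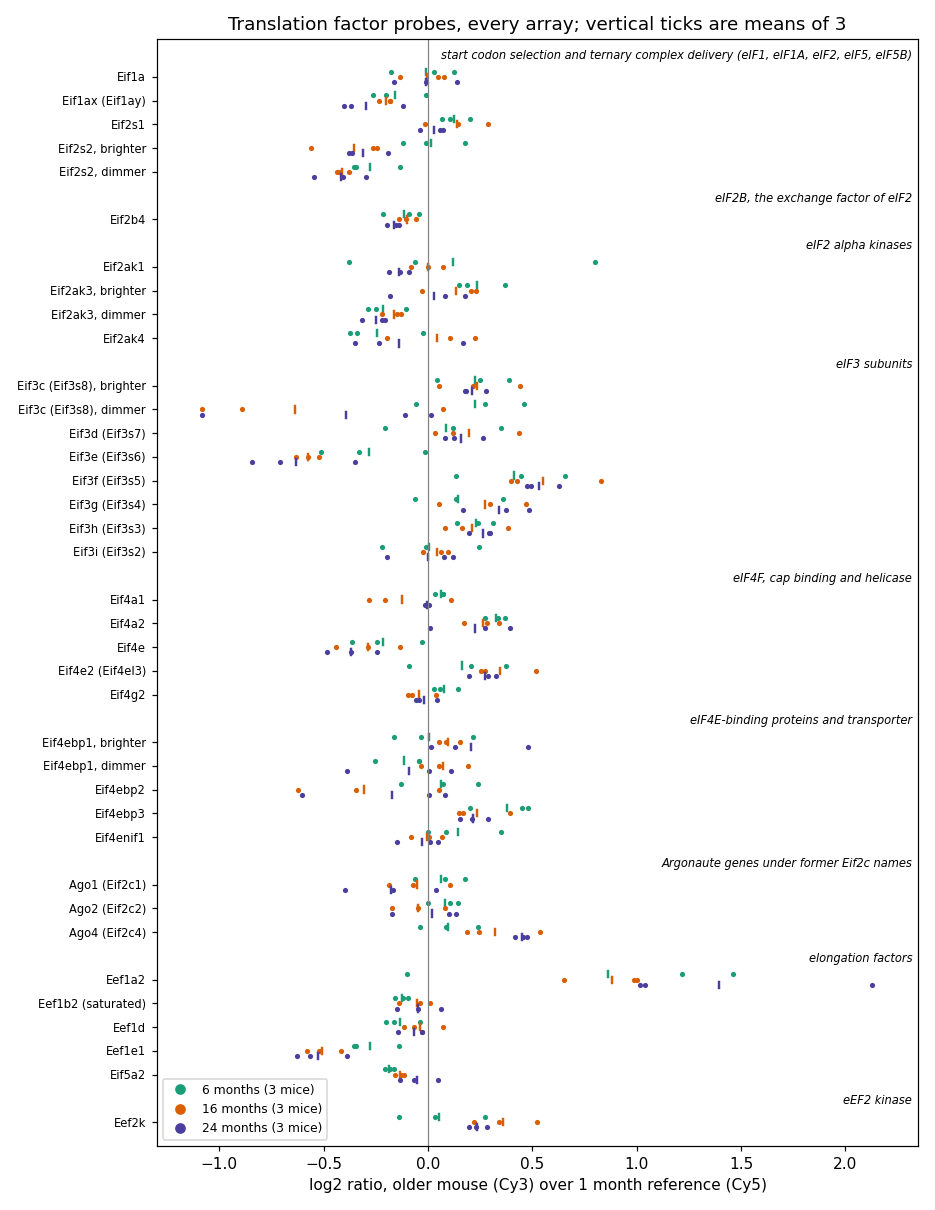
Log2 ratio of each older mouse to the 1 month reference for all 37 translation factor probes, grouped by role; points are single arrays, colours are ages and vertical ticks are the means of 3 mice. Most probes lie within 0.5 of 0 at every age, Eef1e1 and Eif3e lie below 0 on all 9 arrays, and the probes of Eef1a2 and the dimmer probe of Eif3c spread widest.

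Against the 1 month reference, more members passed at the older ages. At 6 months 6 of 36 probes passed (2 higher, 4 lower), at 16 months 9 (5 higher, 4 lower) and at 24 months 13 (5 higher, 8 lower). The shares of all tested probes called were 12.4%, 18% and 24.9%, against 16.7%, 25% and 36.1% of the members. By direction, 7.61% of all tested probes were called higher and 4.76% lower at 6 months, against 5.56% and 11.1% of the members. At 16 months these shares were 11.4% and 6.59%, against 13.9% and 11.1%, and at 24 months 11.6% and 13.3%, against 13.9% and 22.2%. The members' median log2 ratio was 0.06, 0.00 and -0.01 (more exactly -0.002 at 16 and -0.015 at 24 months), beside -0.01, -0.01 and -0.02 over all tested probes. The counts fell when a mouse of the age was left out, and the shares of all tested probes called fell with them. Such fits also hold fewer mice, so they cannot show that single mice carried the calls. Without mouse 1 or 2 of 6 months the member counts fell to 1 and 0 at 6 months (4.45% and 0.756% of all tested probes). Without mouse 1 or 2 of 16 months they fell to 4 and 1 at 16 months (10.3% and 3.31%). Without mouse 1 or 2 of 24 months they fell to 4 and 6 at 24 months (9.36% and 10.9%). Without mouse 3 of the same age the counts were 4, 6 and 10 at 6, 16 and 24 months (6.74%, 9.19% and 18.8%). A fit to the 3 arrays of the age alone called 0, 4 and 0 member probes (3.02%, 9.44% and 0% of all tested probes). With the mean log2 ratio of 8 haemoglobin probes as a covariate, 0, 4 and 12 were called (1.19%, 10.5% and 23%). The covariate was -1.08, -1.01 and -0.66 in the mice of 6 months, all below its mean over the 9 arrays. That fit therefore estimates the 6 month ratio at a haemoglobin level that none of these mice had.

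The direction of the higher calls also changed with the dye normalization. The processed signals had been smoothed between the dyes by the scanner software. Where raw signals were corrected for background with normexp and then only centred on each array's median, with no smoothing by signal (called median centring alone below), the median ratio of the 10% brightest probes at 24 months was -0.89 in place of 0.01, while the median of all probes moved from -0.02 to -0.08. The members called then split as 2 higher and 13 lower at 6 months, 2 and 15 at 16 months, and 3 and 26 at 24 months. All tested probes split as 11630 higher and 14753 lower at 24 months, against 4357 and 4978 with the processed signals. At 6 months they split as 9043 and 10148, against 2851 and 1781, and at 16 months as 6572 and 9545, against 4276 and 2469. Under that setting Eif3f, Eif3g, Eif3h, Eif4a2, Eif4e2, Eif4ebp3 and Ago4 fell below 0 in at least 1 comparison in which they are given as higher below. The falls of Eif3e, Eef1e1, Eif2s2, Eif4e, Eif1ax and Eif2b4 and the rises of Eef1a2 and Eef2k kept their sign. At 24 months those falls then ran from -1.66 to -0.79, against -0.63 to -0.16 with the processed signals. Only 4 of 36 members lay above 0 at 24 months with median centring alone, where the values fell with signal. Eef1a2 and Eef2k are dim, with mean log2 signals of 8.85 and 9.175. A kept sign is therefore not taken as separate support for these genes, and its relation to signal level was not tested. With normexp background correction and loess, the members' counts were 8, 15 and 13, where 16.6%, 24.3% and 21.6% of all tested probes were called.

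**Figure D2:**
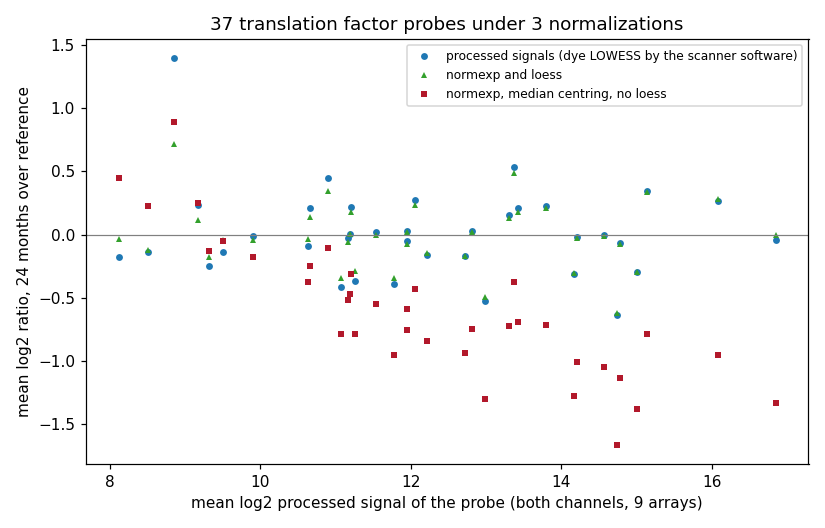
Mean log2 ratio at 24 months over the 1 month reference for the 37 probes against their mean log2 processed signal, under 3 normalizations. The processed signals and the loess values lie together around 0, while the values centred on the median alone fall with signal, and those of Eif3e reach -1.66 against -0.63 with the processed signals.

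The subunits of eIF3, the scaffold that brings the mRNA to the ribosome, did not share a direction with the processed signals, whereas with median centring alone all 8 of their probes lay below 0 at 24 months, from -1.66 to -0.38. Only 4 of all 36 member probes lay above 0 under that setting, so this is not particular to eIF3. Of 8 probes for 7 subunits, 0 passed at 6 months by limma, 2 passed at 16 months (1 higher, 1 lower) and 4 at 24 months (3 higher, 1 lower). Of all tested probes 12.4%, 18% and 24.9% passed at these ages. At 6 months 4 of the 8 had an unadjusted limma p under 0.05, as did 31.1% of all tested probes. The group's median log2 ratio at 24 months was 0.18, beside -0.02 over all tested probes. Eif3e had the lowest mean of these 8 probes at 6 and 24 months. Its log2 ratio was -0.51, -0.33 and -0.02 at 6 months, -0.52, -0.58 and -0.63 at 16 months, and -0.71, -0.85 and -0.35 at 24 months. All 9 arrays lay below the reference, and Eif3e was 1.49-fold lower at 16 months (limma adjusted p = 0.0131) and 1.55-fold lower at 24 months (limma adjusted p = 0.00862). The call at 24 months held with each array left out in turn, and that at 16 months was lost without mouse 2 or 3 of that age (adjusted p up to 0.0814). Another Eif3e probe, whose name lies outside the naming rule, averaged -0.21 at 24 months and was not called (limma adjusted p = 0.157).

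Eif3f, a subunit with an MPN domain, had the highest mean of these 8 probes at each age with the processed signals. Its log2 ratio was 0.66, 0.44 and 0.13 at 6 months, 0.43, 0.83 and 0.40 at 16 months, and 0.48, 0.63 and 0.50 at 24 months. All 9 arrays lay above 0, and Eif3f was 1.47-fold higher at 16 months (limma adjusted p = 0.016) and 1.45-fold higher at 24 months (limma adjusted p = 0.0155), but its mean was 0.00 at 16 and -0.38 at 24 months with median centring alone. Without mouse 2 of 16 months its mean there was 0.41 (limma adjusted p = 0.102). The call at 24 months was lost without mouse 1 or 2 of that age (adjusted p up to 0.0721).

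Eif3h, another MPN domain subunit, and Eif3g, an RNA-binding subunit, passed at 24 months and not at 6 or 16 months; the differences between ages did not pass. Eif3h gave 0.20, 0.30 and 0.29 at that age, a mean of 0.26 ± 0.06 (SD, n = 3; limma adjusted p = 0.0265), and all 9 of its arrays lay above 0. Eif3g gave 0.38, 0.48 and 0.17, a mean of 0.34 ± 0.16 (SD, n = 3; limma adjusted p = 0.0483). With median centring alone both were called lower, at -0.95 for Eif3h and -0.79 for Eif3g. Leaving out any mouse of 24 months ended both calls (adjusted p up to 0.102 and 0.197), and that of Eif3g was also lost without mouse 2 of 6 months or mouse 2 or 3 of 16 months. Eif3d ranged from -0.21 to 0.44 over the 9 arrays and Eif3i from -0.22 to 0.25, and neither passed at any age.

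**Figure D3:**
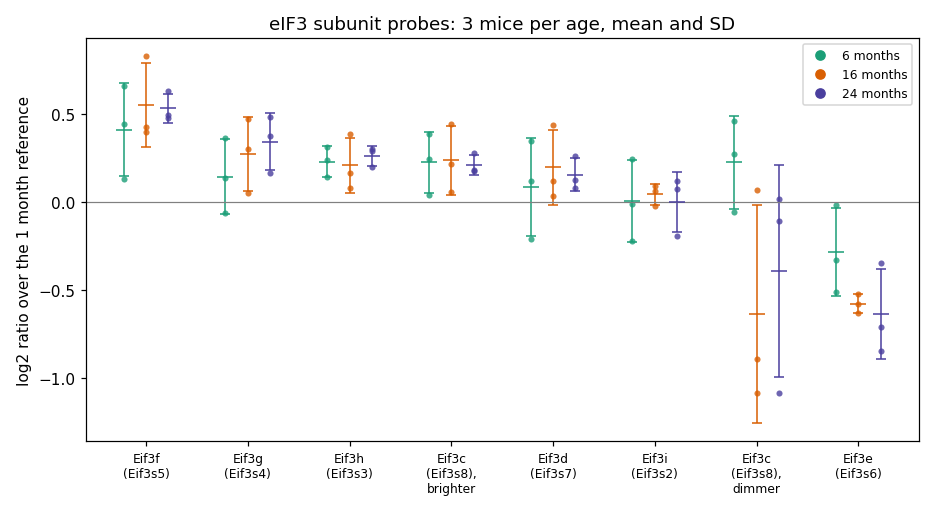
Log2 ratio over the 1 month reference of the 8 eIF3 probes at 6, 16 and 24 months; points are mice, horizontal marks the means of 3 and bars the SD. With the processed signals Eif3f has the highest mean at each age and Eif3e the lowest at 6 and 24 months, all 8 probes fall below 0 at 24 months with median centring alone, and the dimmer Eif3c probe spreads from -1.08 to 0.07 at 16 months.

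The pair of probes for Eif3c, a core subunit, disagreed on 3 arrays. The brighter probe gave 0.39, 0.25 and 0.04 at 6 months, 0.06, 0.44 and 0.21 at 16 months, and 0.18, 0.28 and 0.18 at 24 months. The dimmer probe gave 0.46, 0.27 and -0.06 at 6 months, -1.08, -0.89 and 0.07 at 16 months, and -0.11, 0.02 and -1.08 at 24 months. Mice 1 and 2 of 16 months and mouse 3 of 24 months thus stood below the other 6 mice in the dimmer probe, and did not in the brighter one. Eif4ebp2, a 4E-binding protein, was low on the same arrays, with -0.62 and -0.34 in those mice of 16 months and -0.60 in mouse 3 of 24 months, against -0.13 to 0.24 on the other 6 arrays. Its SD was 0.34 at 16 and 0.37 at 24 months, and it did not pass at any age.

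The same 3 arrays were the highest in haemoglobin. The brightest Hbb-b1 probe, for adult beta globin, gave 2.58, 1.61 and 1.64 there and -2.68 to 0.61 on the other 6. Rag1, the recombinase of developing T cells, showed the same split between probes. Its probe to a cDNA clone gave -1.68, -1.27 and -1.35 on these arrays and 0.20 to 0.76 on the others. The unsaturated Rag1 probe to the reference transcript gave 0.84, 0.22 and 0.69 there and 0.16 to 0.44 on the others. These 3 arrays and the Rag1 comparison were singled out after the values were seen. The part of haemoglobin in the pattern was not tested.

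**Figure D4:**
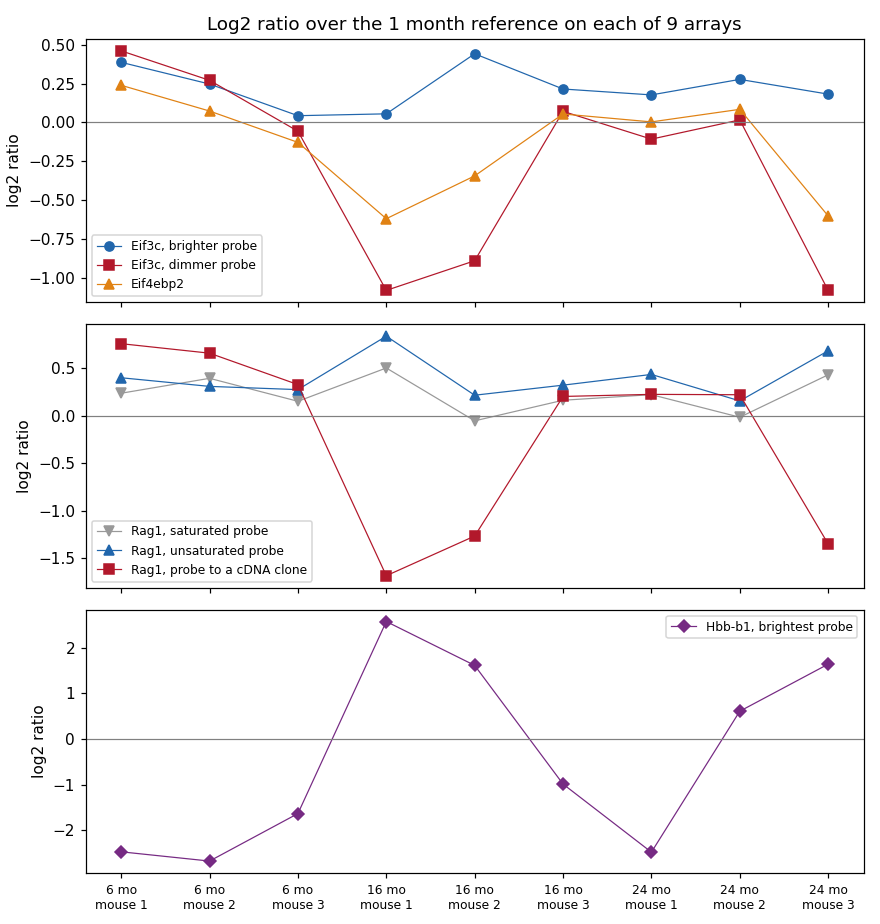
Log2 ratio over the 1 month reference on each of the 9 arrays for both Eif3c probes and Eif4ebp2 (top), the 3 Rag1 probes (middle) and the brightest Hbb-b1 probe (bottom); lines only join the points of a probe. The dimmer Eif3c probe, Eif4ebp2 and the Rag1 clone probe are lowest in mice 1 and 2 of 16 months and mouse 3 of 24 months, where Hbb-b1 is highest.

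Of 5 probes for 4 factors that deliver initiator tRNA or scan with it, 1, 2 and 3 passed as lower at 6, 16 and 24 months and 0 as higher, where 4.76%, 6.59% and 13.3% of all tested probes were called lower. Of the 3 at 24 months 2 were probes of Eif2s2, and the median of the 5 there was -0.30, beside -0.02 over all tested probes. The dimmer Eif2s2 probe gave -0.34, -0.35 and -0.14 at 6 months, -0.44, -0.43 and -0.38 at 16 months, and -0.55, -0.30 and -0.41 at 24 months. It passed at all 3 ages (limma adjusted p = 0.0312, 0.00636 and 0.00577), while the brighter probe, given above, passed at 16 months (1.28-fold lower; limma adjusted p = 0.0243) and 24 months (1.24-fold lower; limma adjusted p = 0.0315). The brighter probe's call at 16 months was lost without any 1 mouse of that age, and at 24 months without mouse 1 or 2 of that age or mouse 2 of 6 months (adjusted p up to 0.104 and 0.127).

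Eif1ax, the X-linked gene of the start-codon scanning factor eIF1A, gave -0.26, -0.20 and -0.01 at 6 months, -0.18, -0.18 and -0.23 at 16 months, and -0.40, -0.37 and -0.12 at 24 months. It lay below 0 on all 9 arrays and passed at 24 months (1.23-fold lower; limma adjusted p = 0.022), a call lost without mouse 1 or 2 of that age (up to 0.108). Its autosomal relative Eif1a ranged from -0.18 to 0.14 and did not pass. Eif2s1, the alpha subunit that the stress kinases phosphorylate, ranged from -0.04 to 0.29 and did not pass. Eif2b4, the delta subunit of eIF2B, was -0.16 ± 0.03 (SD, n = 3) at 24 months (limma adjusted p = 0.042), and leaving out any 1 of 8 arrays, all but mouse 1 of 6 months, ended that call (up to 0.158).

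Of 4 probes for 3 eIF2 alpha kinases, 0 passed as higher and 1 as lower at 6 and at 24 months, where 12.4% and 24.9% of all tested probes were called. Of the pair of probes for Eif2ak3, the endoplasmic reticulum kinase PERK, the dimmer lay below 0 on all 9 arrays, from -0.32 to -0.11, and passed at 6 months (-0.21; limma adjusted p = 0.0365) and 24 months (-0.25; limma adjusted p = 0.0149). The brighter ranged from -0.18 to 0.37 and did not pass, so the pair gives no single direction for this gene. Eif2ak1, the haem-regulated kinase HRI, gave -0.06, -0.38 and 0.80 at 6 months and -0.18 to 0.07 at the older ages, so mouse 3 of 6 months stood alone. The member probe of Eif2ak4, the amino acid sensor GCN2, ranged from -0.37 to 0.22 and did not pass at any age. Another Eif2ak4 probe, outside the naming rule, was called lower at 24 months (-0.23; limma adjusted p = 0.0106). With median centring alone it averaged -0.19 (limma adjusted p = 0.0313).

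Among the cap-binding factors, Eif4e gave -0.25, -0.37 and -0.03 at 6 months, -0.13, -0.28 and -0.44 at 16 months, and -0.48, -0.37 and -0.24 at 24 months. It was below the reference on all 9 arrays and 1.29-fold lower at 24 months (limma adjusted p = 0.0199), a call lost without mouse 1 or 2 of 24 months (up to 0.0973). Its relative Eif4e2, a cap-binding repressor, gave 0.27, 0.52 and 0.25 at 16 months and was 1.27-fold higher there (limma adjusted p = 0.0352), but -0.10 with median centring alone. That call was lost in 6 of the 9 fits that left out 1 array, including each mouse of 16 months, mouse 2 of 6 months and mice 1 and 3 of 24 months (up to 0.205). Other Eif4e2 probes, with names outside the naming rule, averaged 0.42 (limma adjusted p = 0.0334) and 0.31 (limma adjusted p = 0.11) at 24 months. With median centring alone these averaged 0.29 and 0.46, both called.

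Of the helicase paralogs, Eif4a2 gave 0.33, 0.27 and 0.37 at 6 months, 0.34, 0.17 and 0.28 at 16 months, and 0.39, 0.01 and 0.27 at 24 months. It lay above 0 on all 9 arrays and passed at 6 months (1.25-fold; limma adjusted p = 0.0305) and at 16 months (1.2-fold; limma adjusted p = 0.0438), but was -0.27 and -0.30 with median centring alone. Leaving out any mouse of 6 months ended the first call, and 7 of 9 such fits, all but those without mouse 1 or 2 of 24 months, ended the second (up to 0.128 and 0.165). Another Eif4a2 probe outside the naming rule averaged 0.11 at 24 months and was not called (limma adjusted p = 0.328). It averaged -0.39 with median centring alone. Eif4a1 lay between -0.28 and 0.11, and its mice of 24 months, at -0.01, -0.01 and 0.00, lay below those of 6 months, at 0.04 to 0.07. Eif4g2, an eIF4G relative that lacks the eIF4E-binding part, stayed between -0.09 and 0.15.

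Of the 4E-binding proteins, Eif4ebp3 gave 0.48, 0.45 and 0.20 at 6 months and 0.15 to 0.39 at the older ages. It was 1.3-fold higher at 6 months (limma adjusted p = 0.0198), at 0.00 with median centring alone, and the call was lost without mouse 1 or 2 of 6 months (up to 0.127). The probes of Eif4ebp1 differed in sign at 24 months, at 0.21 for the brighter and -0.09 for the dimmer, and neither passed. Eif4enif1, the nuclear transporter of eIF4E, ranged from -0.15 to 0.35 and did not pass.

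The elongation factors held the widest value. Eef1a2, the eEF1A paralog known from muscle and neurons, gave -0.10, 1.46 and 1.22 at 6 months, 1.00, 0.99 and 0.65 at 16 months, and 1.04, 2.13 and 1.02 at 24 months. It was above the reference on 8 of 9 arrays and passed at 24 months, 2.63-fold higher (1.40 ± 0.31, SE; limma adjusted p = 0.0187), but the mean was 0.71 with normexp and loess and 0.89 with median centring alone. Without mouse 1 or 2 of 24 months the call was lost, and without mouse 2 the mean was 1.03 (adjusted p up to 0.088). Differences among the 3 ages did not pass, and mouse 1 of 6 months stood apart from its group.

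Eef1e1 passed at all 3 ages, 1.21-fold lower at 6 months (limma adjusted p = 0.0363), 1.42-fold lower at 16 months (limma adjusted p = 0.00421) and 1.44-fold lower at 24 months (limma adjusted p = 0.00374). Its calls at 16 and 24 months held with each array left out in turn, and that at 6 months was lost without mouse 1 or 2 of 6 months or mouse 2 of 16 months (up to 0.192). Eif5a2 gave -0.18, -0.17 and -0.21 at 6 months and passed there (1.14-fold lower; limma adjusted p = 0.0408), lost in 7 of 9 fits that left out 1 array, all but those without mouse 1 or 2 of 24 months (up to 0.165). Eef1d, an exchange factor subunit of eEF1, ranged from -0.20 to 0.07 and did not pass. The saturated Eef1b2 probe is given no direction.

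Eef2k, the kinase that slows elongation by phosphorylating eEF2, gave 0.27, 0.03 and -0.14 at 6 months, 0.34, 0.52 and 0.22 at 16 months, and 0.28, 0.20 and 0.23 at 24 months. It was 1.28-fold higher at 16 months (limma adjusted p = 0.0246; 0.36, against 0.21 with normexp and loess and 0.22 with median centring alone), lost without mouse 1 or 2 of 16 months (up to 0.154). Ago4 was 1.25-fold higher at 16 months (limma adjusted p = 0.0273) and 1.36-fold higher at 24 months (limma adjusted p = 0.00826), but 0.00 and -0.11 with median centring alone. The second call held with each array left out, and the first was lost without mouse 1 or 2 of 16 months (up to 0.152). The member probe of Ago1 ranged from -0.40 to 0.18 and that of Ago2 from -0.17 to 0.14, and neither passed. Other Ago1 probes, outside the naming rule, averaged 0.28 (limma adjusted p = 0.0199) and 0.27 (limma adjusted p = 0.28) at 24 months. With median centring alone these averaged -0.09 and -0.20, neither called.

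Mouse 2 of 16 months was the highest of the 9 arrays for Eif3f, Eif3h, Eif3d, the brighter Eif3c probe, Eif4e2, Ago4, Eef2k, Eif2s1, Eef1d and the dimmer Eif4ebp1 probe. This mouse was singled out after the values were seen, and the share of all probes highest on its array was not counted. It was also the mouse with the granulocyte signal of 109000 given above and the highest summed macrophage marker signal, 78500 against 19000 to 69700. Its summed Cy3 signals of dividing cell markers (35500 against 19800 to 31300) and stromal markers (13600 against 5400 to 13400) were the highest too. Those of the thymocyte, erythroid, B cell and epithelial markers were not. The part of these cells in the values was not tested. Without this mouse 1 member probe was called at 16 months, and the share of all tested probes called was 3.31%, against 18% with it.

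Over all 9 arrays, 5 member probes lay above 0 throughout (Eif3f, Eif3h, the brighter Eif3c probe, Eif4a2 and Eif4ebp3), a share of 13.9% against 12.8% of all probes measured on every array. With median centring alone all 5 had means below 0 at 24 months, from -0.95 to -0.31. Another 7 lay below 0 throughout (Eif4e, Eef1e1, Eif1ax, Eif3e, Eif2b4 and the dimmer probes of Eif2s2 and Eif2ak3), a share of 19.4% against 13.8%. Different probes of a gene often disagreed against the reference. Among 210 named genes with several called unsaturated probes at 24 months, 49 (23.3%) had probes called in opposite directions.

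The other genes of the pathway are given at 24 months against the reference, where 24.9% of all tested probes were called and their median was -0.02. Of 11 probes for 8 effectors of the integrated stress response, 4 were called higher and 1 lower (median 0.07). Atf4, the transcription factor translated when eIF2 is phosphorylated, was 0.70 (limma adjusted p = 0.00519; 0.20 and not called with median centring alone). Ppp1r15a, which recruits the phosphatase that acts on eIF2 alpha, was 0.98 (limma adjusted p = 0.014; 0.85 with median centring alone). Of 10 probes for poly(A) binding and scanning helpers, 3 were higher and 1 lower (median 0.24). Both probes of Pdcd4, an inhibitor of the eIF4A helicase, were higher (0.49 and 0.61; limma adjusted p = 0.00956 and 0.00432), but -0.10 and 0.09 with median centring alone, and Paip2, which displaces poly(A)-binding protein, was lower (-0.65; limma adjusted p = 0.0101).

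Of 17 probes for mTOR and MNK signalling, 3 were higher and 3 lower (median 0.08), and the probes of Mtor itself passed in opposite directions (0.69 and -0.66; limma adjusted p = 0.00524 and 0.0187), at 0.55 and -0.15 with median centring alone, where the second was not called (limma adjusted p = 0.169). Cytosolic aminoacyl-tRNA synthetases had 2 of 13 probes higher and 0 lower at 24 months (median 0.21), and 6 higher at 16 months, where 11.4% of all tested probes were called higher. Termination and recycling factors had 2 of 7 higher (median 0.02), mitochondrial translation factors 1 of 5 higher (median 0.08), and the hypusination and diphthamide enzymes 1 of 5 lower (median -0.04). That probe was of Dohh, an enzyme that completes hypusine on eIF5A, at -0.38 (limma adjusted p = 0.00285). With median centring alone 70.5% of all tested probes were called at 24 months. The calls for these lists were then 2 higher and 6 lower for the stress response effectors, 2 and 4 for the scanning helpers, 5 and 9 for mTOR and MNK signalling, 4 and 4 for the synthetases, 1 and 5 for termination and recycling, 3 and 1 for the mitochondrial factors, and 1 and 3 for the hypusination and diphthamide enzymes. The genes named from these lists were chosen after their values were seen. Between the 3 older ages, 0 of these probes passed.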

How the data were processed

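Per the labels, RNA of thymocytes was amplified, labelled and hybridized to 2-colour arrays. The deposited scanner files hold intensity values per feature, which the authors' software (Agilent Feature Extraction, 7.5.1 per the file headers and 7.1 per the submitters' processing notes) had background-subtracted and normalized by LOWESS between the dyes (smooth factor 0.25). Both samples of an array carried identical files. The authors' deposited value table gives each channel's score, which was checked against the processed signals and is a z-score on the log10 scale.

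The log2 ratio of processed Cy3 to Cy5 signal was taken per spot, outlier spots (34 to 179 per array) were dropped and spots of a probe averaged. Tested probes had to be well above background in all 3 Cy3 channels of an age or all 9 Cy5 channels, which kept 37449 of 41174. The array's own probe-to-genome build is not given in the sources used here.

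A single model of the 9 arrays, with 1 mean for each age, was fitted in limma 3.58.1 in R 4.3.3 (prior degrees of freedom 1.94, residual 6), with Benjamini-Hochberg adjustment over all tested probes and a two-sided threshold of 0.05. It was tested on simulated data. Depth has no read count here, and the precision is limited by the number of arrays. The members, gene lists and tests were chosen with earlier results of these data known. Genes were named by rule: between ages, the 5 with the smallest p where none passed, plus the smallest p of each role; against the reference, up to 8 rises and 8 falls past the threshold, by each gene's brightest unsaturated probe. Paralogs and second probes within the naming rule are given beside them, with some probes from outside it.

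Same-numbered mice of different ages deviated from their group means with correlations of -0.31 to 0.10 over probes, so the numbers do not pair the mice. Alternatives were other normalizations, no or a stricter filter on dim probes, the replicate number as a block, a haemoglobin covariate, the compared ages alone, outlier spots kept, the authors' scores, the Cy3 channel alone and each array left out. Gene names were updated through RefSeq accessions and synonyms.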

Additional observations from a re-analysis of the deposited data

How the results depend on the processing

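Between ages, 0 member probes were called under every alternative run, the Cy3 channel alone included. Against the reference, 6, 9 and 13 member probes were called at 6, 16 and 24 months. With normexp and median centring without loess the counts were 15, 17 and 29, where 51.2%, 43% and 70.5% of all tested probes were called. With normexp and loess 15 were called at 16 months (24.3% of all tested probes). The haemoglobin covariate gave 0 and 4 at 6 and 16 months (1.19% and 10.5%), the first at a haemoglobin level that no mouse of 6 months had. Only the age compared in the fit gave 0, 4 and 0 (3.02%, 9.44% and 0%). Leaving out 1 array in turn gave 0 to 6, 1 to 10 and 4 to 15. Those fits called 0.756% to 14.4%, 3.31% to 20.6% and 9.36% to 23.3% of all tested probes. Directions of called values reversed under median centring without loess and no other setting run, to -0.001 for Eif4ebp3 and -0.275 for Eif4a2 at 6 months, to -0.104 for Eif4e2, -0.004 for Ago4 and -0.300 for Eif4a2 at 16 months, and to -0.378 for Eif3f, -0.110 for Ago4, -0.788 for Eif3g and -0.955 for Eif3h at 24 months. Between ages, differences that had not passed changed sign under the same setting for Eif5a2 (-0.156 at 24 against 6 and -0.209 at 24 against 16 months), Eif4a1 (-0.306) and Ago4 (-0.106, both at 24 against 16 months), and with the Cy3 channel alone for Ago4 at 16 against 6 months (-0.091). The cause was not tested.

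With the replicate number as a block, 3 probes were called at 6 months, and the counts at 16 and 24 months (8 and 12) stayed within 1.5 times of the main ones. Of all tested probes 6.47%, 13.5% and 19.9% were called with the block. The numbers share no label of litter or day and do not pair the mice. Of 23 named calls against the reference, 4 passed with each array left out in turn and 19 were lost in at least 1 such fit. The scan day could not be fitted as a block, since all files carry 1 extraction day. Probes with signals near background, and differences of about the median standard error of 0.12, are limited by the 3 mice per age. Larger differences between ages did not pass either.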

Other observations

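The array also holds 48 unsaturated probes of translation factors whose gene names in the files are former names, clones or accessions outside the naming rule. They were matched by their descriptions after the values were seen, so they are only counted, and some are given as values beside the members. Between ages 0 of them passed by limma. Against the reference 7 were called higher and 5 lower at 6 months, 14 and 5 at 16 months, and 8 and 7 at 24 months. In either direction 12.4%, 18% and 24.9% of all tested probes were called at these ages. By direction these were 7.61% higher and 4.76% lower at 6 months, 11.4% and 6.59% at 16 months, and 11.6% and 13.3% at 24 months.

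The highest were a pair of probes for Eif5a, the hypusinated factor that helps ribosomes past difficult peptide bonds. One gave 1.55, 1.29 and 0.74 at 6 months, 1.08, 1.82 and 1.41 at 16 months, and 1.27, 1.73 and 1.35 at 24 months, with a mean of 1.45 there (limma adjusted p = 0.00341). The other averaged 1.01 at 24 months (limma adjusted p = 0.00454). Both lay above 0 on all 9 arrays, whereas the Eif5a2 member averaged -0.05. Another Eif5a2 probe, outside the naming rule, averaged -0.44 at 24 months and was not called (limma adjusted p = 0.079). With median centring alone it averaged 0.31 and was called (limma adjusted p = 0.0296). A second Eif4a1 probe lay between 0.42 and 1.00 on the 9 arrays and averaged 0.90 at 24 months (limma adjusted p = 0.00317), while the Eif4a1 member averaged -0.01. These 3 genes have close relatives or copies in the genome, and the probe sequences were not used here.

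A second Eif4e probe lay between -0.47 and -0.30 on all 9 arrays, with -0.39 at 24 months (limma adjusted p = 0.00273), on the same side as the Eif4e member. Both probes of Eif3j, a loosely bound eIF3 subunit, were below 0 on all 9 arrays and averaged -0.75 and -0.52 at 24 months (limma adjusted p = 0.00341 and 0.00458). A second Eif2s1 probe averaged -0.56 at 24 months (limma adjusted p = 0.0111), against 0.03 for the Eif2s1 member. The probes of Eif3b averaged 0.88 (limma adjusted p = 0.0171) and -0.08 at 24 months, and the first was 0.34 and not called with normexp and loess (limma adjusted p = 0.0737). With median centring alone at 24 months the means of the Eif5a probes were 0.75 and 0.13, that of the second Eif4a1 probe was -0.21 and that of the first Eif3b probe 0.81. Those of the second Eif4e probe, both Eif3j probes and the second Eif2s1 probe stayed below 0, from -1.25 to -0.62.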
